A study of Mus musculus with 4 samples.

Results

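Ribosome biogenesis and nucleolar genes, with the transcription factor gene Myc and 3 metabolic genes that Myc is known to activate, were followed in LSK cells lacking SRC-3. The members were a named list of 39 genes. Each was read from its probe set with 1 assigned gene, and where a gene had several, from the brightest over all 4 arrays. Of the 39 genes, 37 were measured this way among 22180 genes in all. Fbl and Mrto4 had no probe set assigned to them alone, so they were left out.

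RNA came from LSK cells (lineage-, Sca1+, c-Kit+) of the bone marrow, a fraction enriched for hematopoietic stem cells and multipotent progenitors. The groups were 2 samples of SRC-3 knockout (KO) mice and 2 samples of wild-type (WT) mice, all male and 8 weeks old, sorted by flow cytometry and run on 1 Affymetrix array each. Ncoa3 encodes SRC-3, a coactivator that nuclear receptors and other transcription factors recruit. The strain, the tissue in which the gene was deleted, the deleted part of the gene and the number of mice per sample are not given in the labels. Each title marks its sample as a biological replicate, and the p-values below cover the spread between the 2 arrays of a group.

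Ribosomes are built in the nucleolus. RNA polymerase I transcribes the ribosomal RNA precursor, small nucleolar ribonucleoproteins (snoRNPs) modify it, and assembly factors fold, cut and join it to ribosomal proteins to make the small and the large subunit. MYC is known to activate many of these genes together with genes of polyamine and pyrimidine synthesis. Stem cells of the marrow are known for a low rate of protein synthesis compared with the progenitors they give rise to.

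All values are levels on the log2 scale as deposited, or differences between such levels, KO minus WT. Ncoa3 stood at 5.35 and 5.09 on the KO arrays, against 7.76 and 7.05 on the WT arrays, and fell by 2.19 ± 0.27 (SE, limma adjusted p = 0.038). Kit, which encodes the c-Kit of the gate, was far above the median gene of 4.32, with 9.43 and 9.34 in KO and 10.33 and 9.65 in WT. Ly6a, which encodes Sca1, was not analysed here. Of 5 lineage antigen genes measured, Cd3e, Cd8a and Ly6g were below the median gene on every array and Cd4 (4.51 and 4.41 in KO, 4.60 and 4.66 in WT) was just above it. Itgam, for the myeloid antigen CD11b, stood at 4.80 and 5.06 in KO and 6.50 and 5.78 in WT, a difference of -1.21 ± 0.27 (SE, limma adjusted p = 0.11). The KO arrays lay closer to each other than the WT arrays did, with a median distance over the members of 0.06 between KO 1 and KO 2 and 0.38 between WT 1 and WT 2. The same distances over the 5147 genes at least as bright as the dimmest member were 0.08 in KO and 0.32 in WT.

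Most ribosome biogenesis genes had a higher mean in KO, while Myc itself had a lower one. Of the 37 members, 35 had a higher mean in KO, against 49.7% of all genes and 59.9% of the 5147 bright ones, and Myc and Npm1 had a lower one. The median difference was 0.38, against -0.001 over all genes and 0.12 over the bright genes. The largest differences were those of Bysl, Rrp9 and Nhp2, which were 2.40-fold, 2.23-fold and 2.07-fold higher in mean. No member passed limma's test at an adjusted p under 0.05 over all genes, where 113 genes or 0.509% did, and 0.894% of the bright genes. With 1 WT array left out, when the spread comes from the KO arrays alone, 27 members passed without WT 1 and 13 without WT 2, beside 7.91% and 13.5% of all genes. At an unadjusted p under 0.05, 14 members (37.8%) were higher and 0 lower. The background at that threshold was 10.5% higher and 6.93% lower over all genes, and 23.1% higher and 10.0% lower over the bright genes. The members were chosen by function and lie at the 76.8 percentile of level or above, so the bright genes are the nearer background.

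Both KO arrays lay above both WT arrays for 22 members and below both for Myc and Npm1. Such separation upward was seen in 25.1% of all genes and 41.5% of the bright ones, and downward in 22.9% and 23.5%. The other 13 members overlapped between the groups. The median rested in part on WT 2. It was 0.20 without WT 2, with 26 of 37 members higher, and 0.56 without WT 1, with 35 higher. The count of 14 members was 29 without WT 1 and 19 without WT 2, and among all genes the count of 2324 was 3551 and 3107. It was 2 without KO 1 and 2 without KO 2, with 837 and 974 among all genes.

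**Figure D1:**
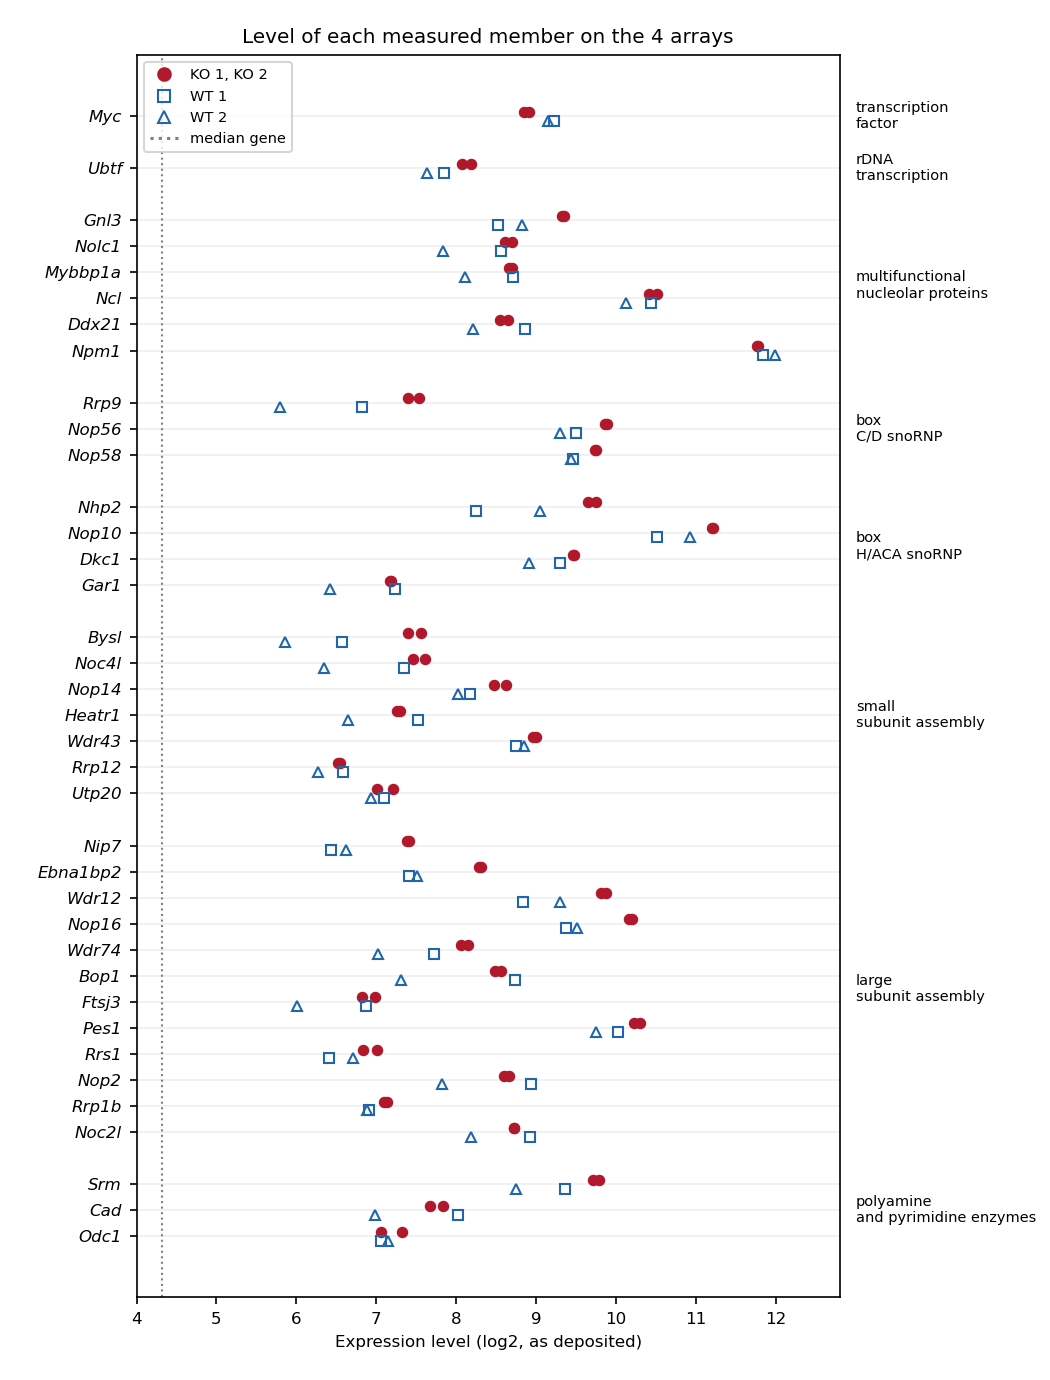
Level of each of the 37 measured members on the log2 scale (horizontal axis) in KO 1 and KO 2 (filled circles), WT 1 (open squares) and WT 2 (open triangles), grouped by role, with the median gene of 4.32 as a dotted line. The KO circles lie close together, the 2 WT symbols often lie apart, and the KO circles lie right of both WT symbols for 22 members and left of both for Myc and Npm1.

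Myc, the transcription factor, was lower in KO in mean without passing the test. Its levels were 8.90 and 8.85 in KO and 9.22 and 9.15 in WT, so the groups did not overlap. The difference was -0.31 ± 0.14 (SE, limma adjusted p = 0.33), with a 95% interval of -0.66 to 0.03. Leaving out each array in turn gave -0.35 to -0.28, with an adjusted p of 0.039 without WT 2 and of 0.085 to 0.83 without the others. Myc is also known as an early response gene. Among 22 measured immediate early and stress genes, a class that cell handling is known to induce, the median was -0.53. At an unadjusted p under 0.05 in limma 13 were lower and none higher, and none was called at an adjusted p under 0.05. At the unadjusted threshold 6.93% of all genes and 10.0% of the bright genes were lower. The 22 genes had a summed linear level of 11492 and 11416 in KO, against 19534 and 12370 in WT. Among them, Egr1 was at 7.22 and 7.07 in KO, against 8.54 and 7.98 in WT. Their part in the Myc difference was not tested.

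Other genes of the MYC and MAX network did not share 1 direction. Of 14 measured, 4 had a higher mean in KO and 10 a lower one, where 49.7% of all genes and 59.9% of the bright genes had a higher one. The median was -0.09, and 1 was higher and 3 were lower at an unadjusted p under 0.05. At that threshold 10.5% of all genes were higher and 6.93% lower, and of the bright genes 23.1% and 10.0%. This list reaches down to the 29.7 percentile of level, below the bright genes. Mlxip, the partner of MLX that responds to glucose, was at -0.89 ± 0.17 (SE, limma adjusted p = 0.086), while Mlx itself was at 0.75 ± 0.25 (adjusted p = 0.20). Mga, a MAX partner that represses, was at -0.62 ± 0.18, and Mxd4, an antagonist of MYC that also pairs with MAX, at -0.85 ± 0.28. Mycn, named after its values were seen, was below the median gene at 3.81 and 3.66 in KO and 3.94 and 3.98 in WT.

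Ubtf encodes the factor that binds ribosomal DNA and opens it for RNA polymerase I. Its levels were 8.18 and 8.08 in KO and 7.85 and 7.64 in WT, a difference of 0.39 ± 0.17 (SE, limma adjusted p = 0.31). The groups did not overlap. Among 15 other genes of RNA polymerase I and its factors the median was 0.16. At an unadjusted p under 0.05 there were 3 higher (20.0%, against 10.5% of all genes and 23.1% of the bright genes) and 0 lower. This list reaches down to the 63.4 percentile of level, below the bright genes. The subunit genes Polr1d, Polr1e and Cd3eap were at 0.79 ± 0.16, 0.72 ± 0.17 and 0.64 ± 0.19, and the promoter factor gene Taf1b was at 0.36 ± 0.15.

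Among genes of the 6 multifunctional nucleolar proteins, 5 were higher and 1 was lower in mean, with a median of 0.23. Of the bright genes 59.9% were higher in mean, with a median of 0.12. Gnl3, which encodes nucleostemin, a nucleolar GTP-binding protein known from stem cells, had 9.32 and 9.35 in KO and 8.52 and 8.82 in WT. Its difference was 0.66 ± 0.16 (SE, limma adjusted p = 0.13), and it was the 1 gene of the group at an unadjusted p under 0.05. Npm1, for nucleophosmin, was the brightest member, with 11.76 and 11.78 in KO and 11.83 and 11.98 in WT. Its groups did not overlap, but the difference of -0.14 ± 0.11 was small. A dimmer probe set of Npm1 had 7.43 and 7.36 in KO and 7.37 and 7.52 in WT, so there the groups overlapped. Npm1 has processed copies in the genome whose signal its probe sets may share.

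Ncl, for nucleolin, had 10.51 and 10.42 in KO and 10.44 and 10.12 in WT, so WT 1 lay between the KO arrays. Nolc1, a chaperone of snoRNPs, had 8.70 and 8.61 in KO, against 8.56 in WT 1 and 7.83 in WT 2, so its groups did not overlap but its distance to WT 1 was small. For the remaining 2 genes of this group the sign turned on which WT array they were set against. Mybbp1a, a nucleolar protein that binds MYB, had 8.66 and 8.70 in KO, against 8.71 in WT 1 and 8.11 in WT 2. The helicase gene Ddx21 had 8.65 and 8.55 in KO, against 8.85 in WT 1 and 8.21 in WT 2, and its second probe set disagreed, with 6.80 and 6.75 in KO and 5.64 and 5.53 in WT.

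Genes of both kinds of snoRNP had higher means in KO, 7 of 7 measured, against 59.9% of the bright genes. In the box C/D particle, which methylates ribosomal RNA, Nop56 had 9.88 and 9.87 in KO and 9.49 and 9.30 in WT, a difference of 0.48 ± 0.14 (SE, limma adjusted p = 0.17). Its core partner Nop58 had 9.73 and 9.75 in KO and 9.46 and 9.44 in WT, a difference of 0.29 ± 0.13. Rrp9, a protein of the U3 particle that guides the early cuts of the precursor, had 7.53 and 7.40 in KO, against 6.82 in WT 1 and 5.80 in WT 2. The Rrp9 difference of 1.16 ± 0.33 was large, but so was the distance of 1.02 between its WT arrays. Nop56 had 2 further probe sets, and their differences were 0.44 and -0.13, so its probe sets did not share a direction.

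In the box H/ACA particle, which converts uridines of ribosomal RNA to pseudouridines and also forms part of telomerase, Nhp2 had 9.65 and 9.75 in KO and 8.25 and 9.05 in WT. The difference was 1.05 ± 0.26 (SE, limma adjusted p = 0.13). Nop10, the smallest protein of the particle, was among the brightest members, with 11.20 and 11.21 in KO and 10.51 and 10.92 in WT (0.49 ± 0.16, adjusted p = 0.20). For both genes WT 1 was the lower WT array. For the pseudouridine synthase gene Dkc1 and for Gar1 it was WT 2. Dkc1 had 9.48 and 9.45 in KO and 9.29 and 8.91 in WT, and Gar1 had 7.19 and 7.17 in KO and 7.23 and 6.42 in WT, where WT 1 lay above both KO arrays.

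The large subunit assembly genes held the members of smallest p. All 12 measured were higher in mean, by a median of 0.48, and 6 of them at an unadjusted p under 0.05. Of the bright genes 59.9% were higher in mean, with a median of 0.12, and 23.1% were higher at that threshold. Over all genes these shares were 49.7% and 10.5%. Nop16, an assembly factor of the large subunit, had 10.20 and 10.16 in KO and 9.37 and 9.51 in WT, a difference of 0.74 ± 0.14 (SE, limma adjusted p = 0.082). Ebna1bp2, whose yeast relative acts in the same pathway, had 8.28 and 8.31 in KO and 7.41 and 7.51 in WT (0.84 ± 0.16, adjusted p = 0.085). Nip7, needed for processing of the precursor, had 7.38 and 7.41 in KO and 6.44 and 6.62 in WT (0.87 ± 0.17, adjusted p = 0.090). In these 3 genes the WT arrays lay within 0.18 of each other, and the KO arrays stood well above them.

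Promoters of the 4 members of smallest p that have an entry in the RefSeq promoter table (build GRCm38.p6), and of Nop2, were searched for the sequence that MYC with MAX is known to bind. Nop2 was added after the search because it held that sequence. The 250 bases before the annotated start were read 5′ to 3′ on the gene's strand. Capitals mark the E-box CACGTG or its variant CACGCG on either strand.
Nop16 (chr13:54590075-54590324, minus strand): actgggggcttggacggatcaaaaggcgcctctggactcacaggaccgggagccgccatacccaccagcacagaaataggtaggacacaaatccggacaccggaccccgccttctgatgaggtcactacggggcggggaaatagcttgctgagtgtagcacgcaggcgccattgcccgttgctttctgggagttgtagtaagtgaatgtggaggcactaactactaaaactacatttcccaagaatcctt
Ebna1bp2 (chr4:118620549-118620798, plus strand): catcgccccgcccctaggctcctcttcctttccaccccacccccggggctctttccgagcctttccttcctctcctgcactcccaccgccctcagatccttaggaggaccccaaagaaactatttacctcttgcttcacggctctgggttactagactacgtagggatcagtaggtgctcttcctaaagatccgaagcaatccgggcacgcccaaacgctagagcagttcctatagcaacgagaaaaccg
Nip7 (chr8:107056627-107056876, plus strand): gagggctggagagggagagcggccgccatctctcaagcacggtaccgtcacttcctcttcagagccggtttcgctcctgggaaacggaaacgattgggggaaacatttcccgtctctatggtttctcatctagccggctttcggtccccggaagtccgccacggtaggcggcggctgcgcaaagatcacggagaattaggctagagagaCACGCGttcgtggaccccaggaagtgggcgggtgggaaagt
Bysl (chr17:47611493-47611742, minus strand): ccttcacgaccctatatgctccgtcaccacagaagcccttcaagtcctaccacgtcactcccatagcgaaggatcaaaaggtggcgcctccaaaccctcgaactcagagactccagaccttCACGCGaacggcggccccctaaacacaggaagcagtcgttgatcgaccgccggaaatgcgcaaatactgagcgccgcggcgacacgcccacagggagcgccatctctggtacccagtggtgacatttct
Nop2 (chr6:125131633-125131882, plus strand): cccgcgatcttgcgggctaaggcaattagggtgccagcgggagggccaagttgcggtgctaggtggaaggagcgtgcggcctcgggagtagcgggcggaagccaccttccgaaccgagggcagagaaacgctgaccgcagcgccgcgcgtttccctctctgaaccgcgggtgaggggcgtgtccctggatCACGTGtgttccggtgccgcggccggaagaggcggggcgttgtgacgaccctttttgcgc

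The E-box CACGTG lay in this window in 1 of 31 members with an entry, Nop2, where it began 60 bases before the start. Of all genes with an entry, 6.86% held it. The variant CACGCG, read on both strands, lay in 7 of 31 members or 22.6%, against 8.65% of all genes. Nip7 held it 41 bases and Bysl 129 bases before the start, while Nop16 and Ebna1bp2 held neither sequence. The site CCGGAAG, also searched on both strands and known as the core of ETS factor sites, lay in 7 of 31 members, against 7.83% of all genes. A gene counted once however many matches it held.

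Members with and without these letters had similar differences between KO and WT, given here without a test. The median difference was 0.39 for the 7 members with CACGCG and 0.41 for the 24 without it. For CCGGAAG it was 0.46 for the 7 with and 0.38 for the 24 without. Member promoters had a median GC content of 58.6%, against 52.4% over all windows, and 4 members had several annotated starts and so more chances of a match. A match is a stretch of letters and shows no binding, and letters after the start were not searched. Myc, Npm1, Rrp12, Rrs1, Bop1 and Srm had no entry.

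Pes1, Bop1 and Wdr12 encode the 3 proteins of the PeBoW complex, which is required for maturation of the large subunit. Wdr12 had 9.81 and 9.87 in KO and 8.84 and 9.30 in WT, a difference of 0.77 ± 0.19 (SE, limma adjusted p = 0.12). Pes1 had 10.30 and 10.23 in KO and 10.03 and 9.74 in WT, a difference of 0.38 ± 0.15 (adjusted p = 0.27). Bop1 had 8.56 and 8.48 in KO, against 8.73 in WT 1 and 7.31 in WT 2. The 3 subunits therefore differed in how firmly KO and WT were separated, with Bop1 at 0.50 ± 0.42 and a distance of 1.42 between its WT arrays, the widest of any member.

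Among the other large subunit genes, Wdr74 had 8.15 and 8.06 in KO, against 7.73 in WT 1 and 7.03 in WT 2 (0.73 ± 0.25, limma adjusted p = 0.21). Rrs1 had 7.01 and 6.83 in KO and 6.41 and 6.71 in WT, and its second probe set had nearly the same difference, 0.35 beside 0.36. Rrp1b was at 0.22 ± 0.16 with groups that did not overlap. For Ftsj3, Nop2, a methyltransferase of ribosomal RNA, and Noc2l the groups overlapped. Nop2 had 8.60 and 8.66 in KO, against 8.93 in WT 1 and 7.82 in WT 2, and Ftsj3 had 6.98 and 6.82 in KO, against 6.87 in WT 1 and 6.00 in WT 2. Noc2l had 8.72 and 8.73 in KO, against 8.93 in WT 1 and 8.18 in WT 2.

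Small subunit assembly genes had a median difference of 0.20 over 7 measured members, against 0.12 over the bright genes. All 7 had a higher mean in KO, as did 59.9% of the bright genes. The largest difference of the 7 was that of Bysl, which encodes bystin, a factor of the late small subunit precursor. The gene, whose promoter is among those printed, had 7.56 and 7.40 in KO and 6.57 and 5.86 in WT, a difference of 1.26 ± 0.26 (SE, limma adjusted p = 0.098). Nop14, of the early small subunit precursor, had 8.62 and 8.47 in KO and 8.17 and 8.03 in WT (0.45 ± 0.16, adjusted p = 0.23). Noc4l, known in yeast as a partner of Nop14, had 7.61 and 7.46 in KO, against 7.35 in WT 1 and 6.34 in WT 2 (0.69 ± 0.33, adjusted p = 0.34).

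The other 4 genes of this group lay closer to no difference. Wdr43 was at 0.19 ± 0.15, Utp20 at 0.09 ± 0.18 and Rrp12, an export factor in yeast, at 0.11 ± 0.19. Heatr1, which acts in transcription and early processing of the precursor, had 7.29 and 7.26 in KO, against 7.52 in WT 1 and 6.64 in WT 2, so both KO arrays lay between the WT arrays.

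Of the enzymes outside the nucleolus that MYC is known to activate, Srm, the spermidine synthase gene, had 9.78 and 9.71 in KO and 9.36 and 8.75 in WT (0.69 ± 0.22, SE, limma adjusted p = 0.19). Odc1, which encodes ornithine decarboxylase, the enzyme before it in the pathway, had 7.06 and 7.32 in KO and 7.06 and 7.15 in WT. Its interval of -0.35 to 0.52 includes no difference. Cad, which carries out the opening steps of pyrimidine synthesis, had 7.67 and 7.84 in KO, against 8.02 in WT 1 and 6.99 in WT 2. Among 16 other polyamine and pyrimidine genes the median was 0.12. At an unadjusted p under 0.05 there were 4 higher (25.0%, against 10.5% of all genes and 23.1% of the bright genes) and 0 lower. This list reaches down to the 31.2 percentile of level, below the bright genes. The 4 higher genes were Sat1 (0.57 ± 0.18), Ctps (0.68 ± 0.22), Umps (0.46 ± 0.15) and Cmpk1 (0.55 ± 0.20).

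**Figure D2:**
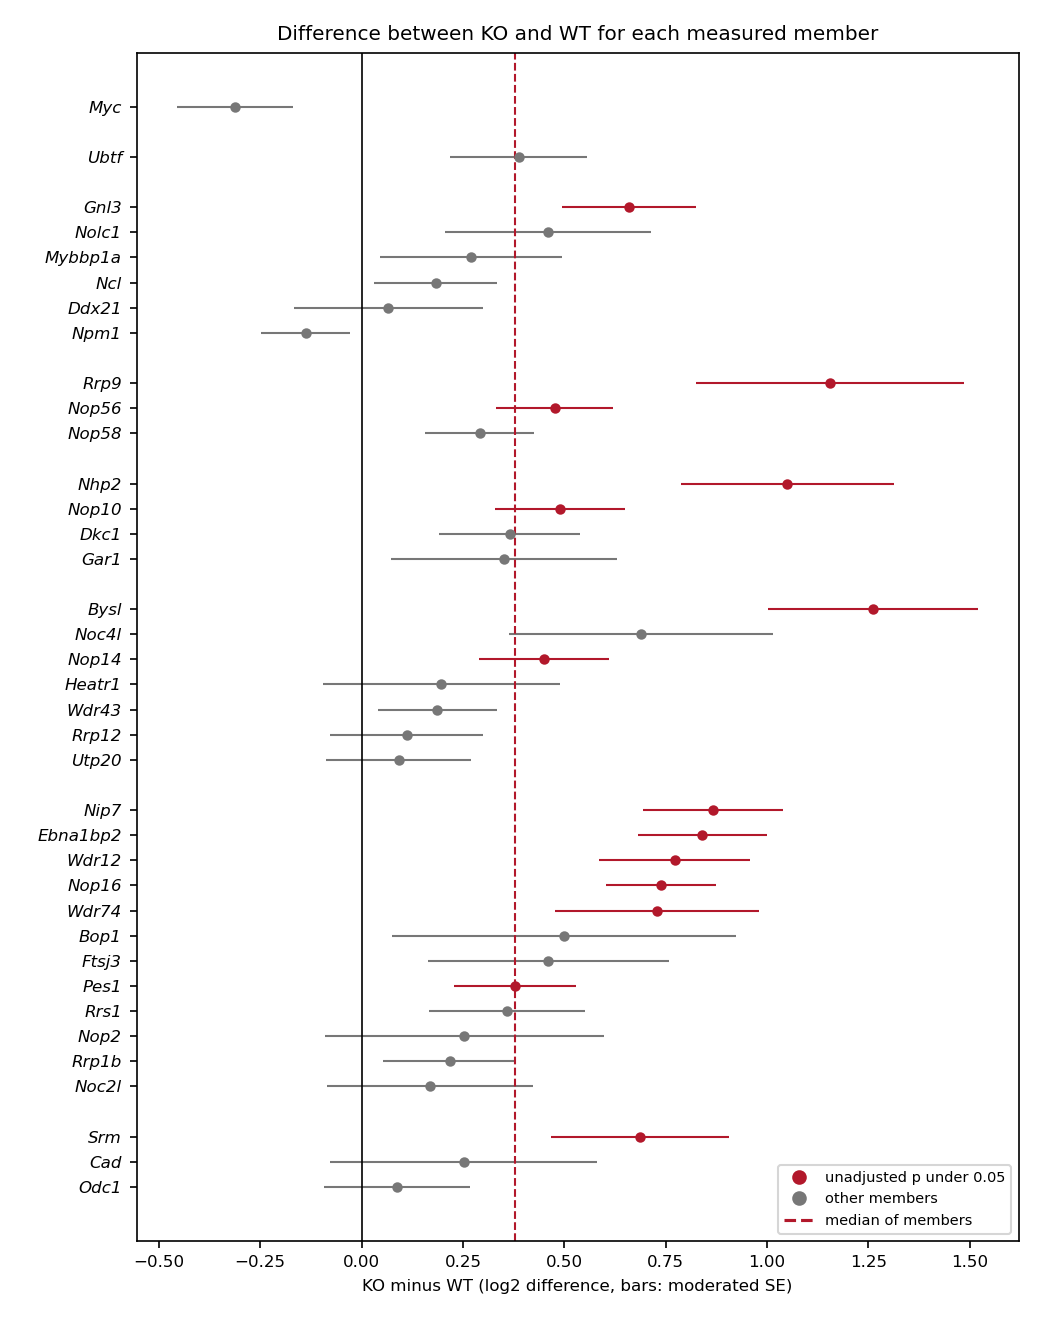
Difference KO minus WT on the log2 scale (horizontal axis) for each measured member, with moderated standard errors as bars, in the order of roles used above, and the median of 0.38 as a dashed line. Red points are the 14 members at an unadjusted p under 0.05, all to the right of 0, and Myc lies left of 0 at -0.31.

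The WT arrays split the members by gene. WT 1 and WT 2 lay more than 0.5 apart for 16 members, with WT 2 lower in 15 and WT 1 lower in Nhp2. The count at 0.5 was not made for the bright genes. At any distance, WT 2 was below WT 1 in 26 of the 37 members and in 3132 of the 5147 bright genes. The KO arrays were never more than 0.27 apart. Of the 13 members whose groups overlapped, WT 2 was the lowest array in 12, and both KO arrays lay between the WT arrays in 9. Set against WT 1 alone, both KO arrays were higher in 22 members (59.5%), and set against WT 2 alone in 34 (91.9%). Over the bright genes these shares were 48.9% and 61.9%. The median difference from WT 1 was 0.20 and from WT 2 was 0.56, while over the same bright genes these medians were 0.02 and 0.18.

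**Figure D3:**
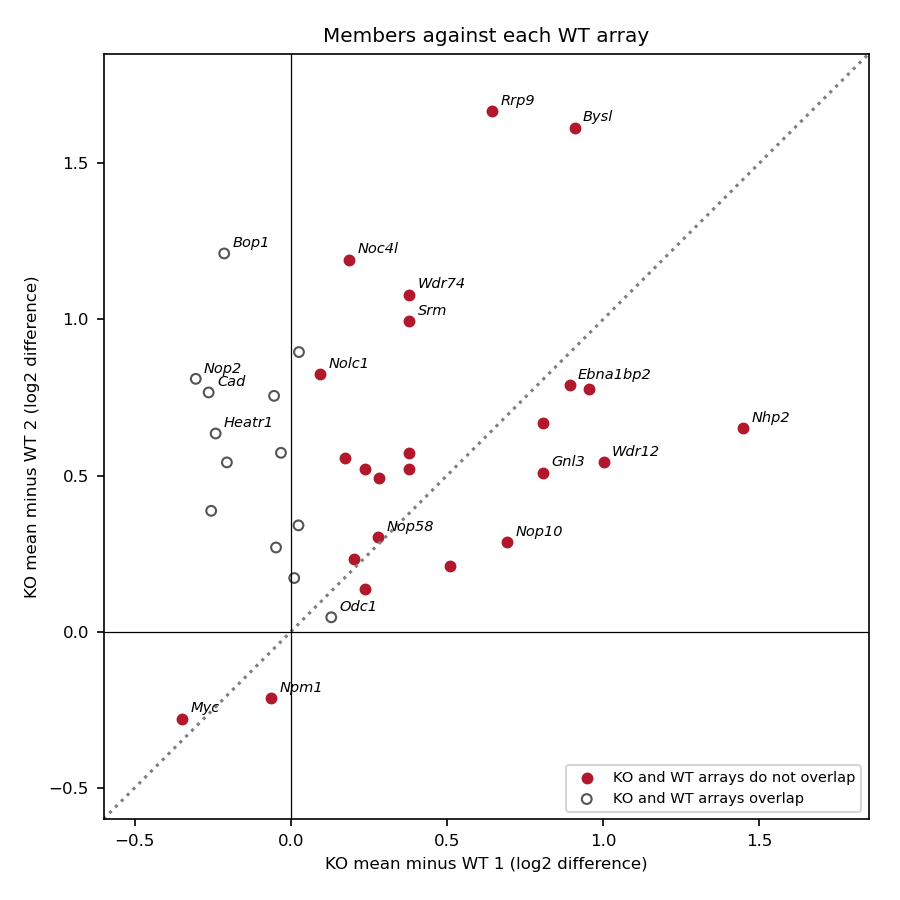
KO mean minus WT 1 (horizontal axis) against KO mean minus WT 2 (vertical axis) on the log2 scale for the 37 measured members, with equal differences on the dotted line. Filled points are the 24 members whose KO and WT arrays did not overlap. Open points such as Bop1, at -0.21 from WT 1 and 1.21 from WT 2, lie near or left of the vertical zero line.

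Assembly genes outside the list also had mostly higher means in KO. Of 41 other small subunit assembly genes, 39 had a higher mean and the median was 0.44, and at an unadjusted p under 0.05 there were 21 higher and 0 lower. Of 41 other large subunit assembly genes, 36 had a higher mean and the median was 0.36, and there were 14 higher and 1 lower. These were 51.2% and 34.1% higher, against 10.5% of all genes and 23.1% of the bright genes. A higher mean in KO was seen in 49.7% of all genes and 59.9% of the bright genes. Neither list had a gene at an adjusted p under 0.05 in limma.

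Among the small subunit genes, Pno1, a factor of the late precursor, averaged 8.06 in KO and 6.90 in WT (1.17 ± 0.23, SE, limma adjusted p = 0.089). Ngdn, Dcaf13 and the methyltransferase gene Emg1 were at 0.67 ± 0.14, 0.63 ± 0.13 and 0.65 ± 0.14. Among the large subunit genes, Pwp1 was at 0.79 ± 0.17, Rpf2, which in yeast loads a small ribosomal RNA with Rrs1, at 0.98 ± 0.24, and Rrp15 at 0.87 ± 0.22. Ppan went the other way, with 8.72 and 8.66 in KO and 9.45 and 9.17 in WT (-0.62 ± 0.16, adjusted p = 0.14).

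**Figure D4:**
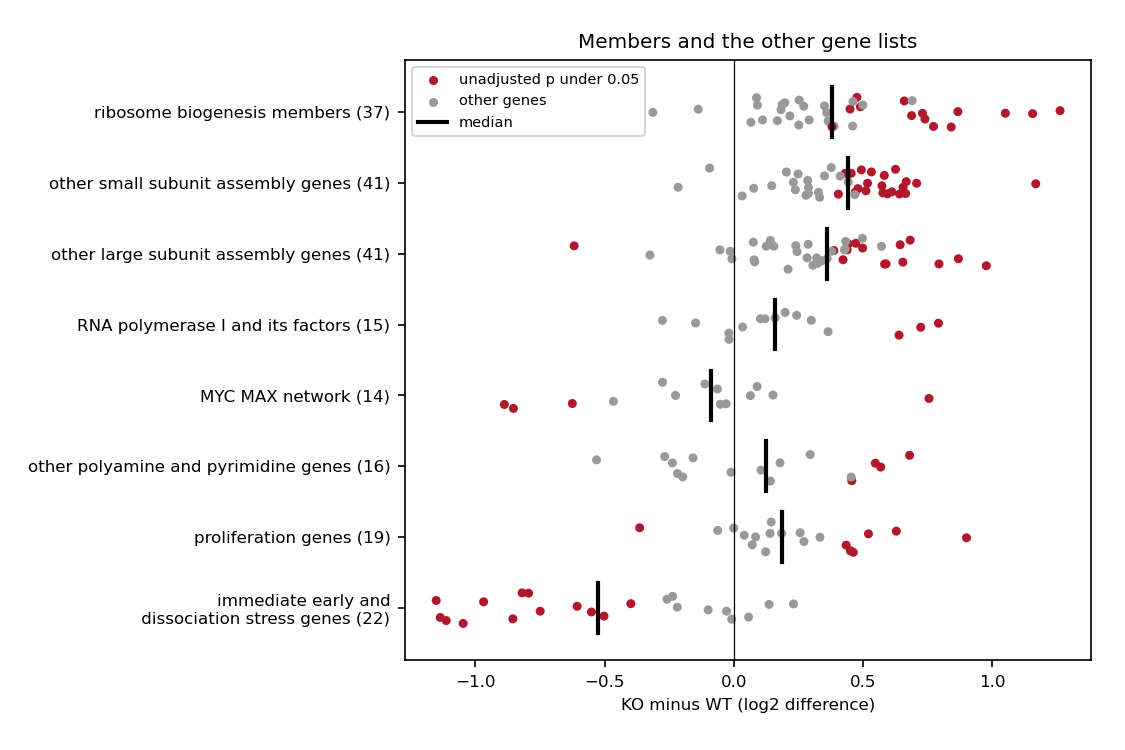
Difference KO minus WT on the log2 scale (horizontal axis) for the genes of each list (rows, with the number measured), with a black bar at each list's median and red points at an unadjusted p under 0.05. The medians of the members and of the other small and large subunit assembly genes lie at 0.38, 0.44 and 0.36, that of the MYC and MAX network at -0.09, and that of the immediate early genes at -0.53.

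Of the marker genes of other cell types and of proliferation, only erythroblast markers held calls at an adjusted p under 0.05 in limma. At an unadjusted p under 0.05, 10.5% of all genes were higher and 6.93% lower. Of the bright genes 23.1% were higher and 10.0% lower. Erythroblast markers had a summed linear level of 499.9 and 495.7 in KO, against 112.5 and 127.7 in WT over 7 measured genes, and 4 of these were higher and 1 was lower at an unadjusted p under 0.05. At an adjusted p under 0.05 in limma 3 of them were higher, namely Rhag (3.67 ± 0.24, adjusted p = 0.0090), Ermap (3.97 ± 0.29, adjusted p = 0.0090) and Tspan33 (1.33 ± 0.18, adjusted p = 0.0497). Rhag, a membrane protein of red cells, stood at 7.31 and 7.30 in KO and 3.34 and 3.94 in WT. Slc4a1, for the anion exchanger of red cells, averaged 3.30 ± 0.43 in KO and 4.27 ± 0.17 in WT (SD, n = 2 each), both below the median gene. Neutrophil markers summed to 675.7 and 716.4 in KO, against 314.8 and 398.0 in WT over 12 genes, 6 of them higher and 0 lower without adjustment at 0.05, and none called after it, with Ly6g below the median gene on every array. The largest of these differences, that of the granule peptide gene Camp, was 1.80 ± 0.26, while Itgam, a myeloid gene of the lineage antigens above, was lower in mean. Over 7 B lineage markers the median was -0.18, with 2 lower at an unadjusted p under 0.05, Ebf1 at -0.84 ± 0.24 and Cd79a at -0.42 ± 0.17, and 0 higher. Cd79a was below the median gene on every array. Cd79b, the brightest of the 7, went the other way, with 7.45 and 7.48 in KO and 7.28 and 7.11 in WT. Both KO arrays lay above both WT arrays for 2 of these markers and below both for 2. Such separation was seen upward in 25.1% and downward in 22.9% of all genes, and in 41.5% and 23.5% of the bright genes. The stem and progenitor surface genes Kit, Cd34, Flt3, Procr and Slamf1, of which only Kit belongs to the gate, summed to 2159 and 2040 in KO, against 3879 and 2977 in WT. Of these 5, Cd34 (-0.68 ± 0.13), Flt3 (-1.21 ± 0.27) and Kit (-0.60 ± 0.23) were lower at the same unadjusted threshold, and 0 were higher. Proliferation genes had a median of 0.18 over 19 genes, against 0.12 over the bright genes. At the unadjusted threshold 6 of them (31.6%) were higher and 1 was lower. Tk1, Aurka and Cdk1 were at 0.90 ± 0.23, 0.63 ± 0.17 and 0.52 ± 0.16, and Mki67 was lower in mean at -0.36 ± 0.14. The part of these cell types and of proliferation in the members' differences was not tested. In sorted bulk samples, more cells of a type and more RNA per cell cannot be told apart.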

How the data were processed

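Expression was measured in 2 KO and 2 WT samples on 4 arrays. The authors deposited log2 values for 41345 probe sets. RMA and Affymetrix Expression Console 1.2.1 are named, per the submitters' processing notes, without settings, filters or build, and the log2 scale was taken from the values (0.375 to 12.8). RMA compresses differences of dim probe sets. Of the probe sets, 23521 had 1 gene symbol in the platform annotation, which gave 22180 genes after the probe set of highest mean was kept. All 37 measured members matched a RefSeq gene identifier.

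Differences were tested with limma 3.58.1 (R 4.3.3), two-sided, with an intensity trend and Benjamini-Hochberg adjustment over all genes at 0.05. Errors of differences are moderated SEs. The model was also run on simulated data in which KO and WT had the same spread for each gene. Such data do not check the unequal spread of the KO and WT arrays here. The members, lists and tests were chosen with earlier results of these data known, and the background of bright genes was chosen after seeing the levels. Per-array values are given for Myc and the members of smallest p by rule, and for others to show the WT arrays. From the other lists up to 4 genes of smallest p were named, with Mki67, Mycn and Ly6g added. Array number limits the precision, and no scan date or detection call was used. Alternatives were a replicate block, the mean of probe sets, a level filter, quantile normalization, median centring, no trend, and each array left out.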

Additional observations from a re-analysis of the deposited data

How the results depend on the processing

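No member was called in limma under the replicate block, the mean of probe sets, quantile normalization, median centring or no intensity trend. In each, 13 or 14 members were higher at an unadjusted p under 0.05, but not always the same ones. Among all genes the count was 2324 in the main model, 2281 with the replicate block and 2333 with the mean of probe sets. It was 2314 with no trend, 2609 after median centring and 2819 after quantile normalization, where 13 members were higher. With the mean of probe sets Ddx21, at 0.63, came under that threshold and Nop56, at 0.26, left it. With the replicate block Noc4l came under it and Nop14 and Pes1 left it. With genes at or above the median level, where fewer genes were tested, 1 member was called, Nop16, and 289 genes were called in all instead of 113. All-gene calls were 189 after quantile normalization and 247 after median centring. After quantile normalization 1 member was lower at an unadjusted p under 0.05, Myc at -0.37. The members' median ran from 0.37 to 0.43 over these 6 settings, and the median over all genes tested moved too, from -0.001 to 0.065. After quantile normalization the members' median was 0.37 beside 0.065 over all genes. After median centring it was 0.43 beside 0.047. No label ties a KO sample to the WT sample of the same number, and the correlation of 0.11 between the deviations of KO 1 and WT 1, with 2 arrays a group, does not settle whether the numbers pair them. With the replicate block 111 genes were called.

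Leaving out each array in turn gave 0 to 3002 calls among all genes, 0 to 27 among the members, 2 to 29 members higher and 0 to 6 lower at an unadjusted p under 0.05, and a members' median of 0.20 to 0.56. Without WT 1 and without WT 2, when the spread comes from the KO arrays alone and the lone WT array is assumed to vary like them, 27 and 13 members were called beside 7.91% and 13.5% of all genes. Of the members, 26 kept 1 sign without each array. The sign turned for 9 without WT 2, with ranges over the arrays left out of -0.032 to 0.57 for Mybbp1a, -0.26 to 0.39 for Ddx21, -0.054 to 0.76 for Gar1, -0.24 to 0.63 for Heatr1, -0.047 to 0.27 for Rrp12, -0.21 to 1.21 for Bop1, -0.30 to 0.81 for Nop2, -0.20 to 0.54 for Noc2l and -0.26 to 0.77 for Cad. It turned for Utp20 without KO 1 (-0.0086 to 0.19) and for Odc1 without KO 2 (-0.045 to 0.22). Why these genes differ between the WT arrays was not tested. With 2 arrays a group the precision was limited, and the smallest difference among the 113 genes called was 1.04 on the log2 scale.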
